A study of Arabidopsis thaliana with 2 samples.

Results

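SPL3, SPL4 and SPL5 are the small members of the SQUAMOSA PROMOTER BINDING PROTEIN-LIKE family of Arabidopsis thaliana whose transcripts carry a target site of the microRNA miR156. They were taken by their gene identifiers, AT2G33810, AT1G53160 and AT3G15270, and all 3 were found among the 11666 genes of the authors' deposited table. RNA-seq had been carried out on whole seedlings grown for 12 days on Murashige and Skoog medium with 3% sucrose at 23 °C, under 16 h of light and 8 h of darkness. The wild-type and the ago1-36 mutant were each represented by 1 library, of about 13670000 and 13590000 reads. No treatment is named in the labels, and whether the seedlings of a library were pooled is not given in the sources used here. The comparison asks which transcripts, microRNA targets among them, differ in level when ARGONAUTE1 is mutated. With 1 library a genotype no difference has a replicate check, no p-value exists, and higher or lower refers to these 2 libraries.

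SPL proteins are plant transcription factors that bind DNA through the SBP domain. In young seedlings miR156, carried by the ARGONAUTE1 protein, holds SPL transcripts and their translation down, and as miR156 declines with age the SPL proteins move the shoot from the juvenile to the adult phase and towards flowering. SPL3, SPL4 and SPL5 consist of little more than the SBP domain, and they promote flowering together with the FD and FT proteins by acting on the floral genes LFY, FUL and AP1. Larger relatives such as SPL9 and SPL15 also set leaf production and leaf traits. Protein and small RNA were not measured here.

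The sequences that tie the 3 genes to miR156 were read from the TAIR10.1 reference genome and are shown because the pairing between them defines the group. In the microRNAs, capitals mark the seed, bases 2 to 8. In the sites, which are written as RNA from 5′ to 3′, capitals mark the 7 bases opposite the miR156 seed. The SPL9 site stands for all 8 larger targeted relatives (SPL2, SPL6, SPL9, SPL10, SPL11, SPL13A, SPL13B and SPL15), in which the 20 bases are identical.
miR156a-5p: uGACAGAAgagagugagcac
miR157a-5p: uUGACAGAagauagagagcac
SPL3 site: uugcuuacucucUUCUGUCa
SPL4 site: cugcucucucucUUCUGUCa
SPL5 site: ccgcucucucucUUCUGUCa
SPL9 site: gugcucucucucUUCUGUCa

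Of 14 annotated miR156 and miR157 loci, 6 encode the sequence printed for miR156a-5p and 3 encode the 21-base miR157a-5p, which begins with 1 extra base and also differs in its middle. The stretch opposite the seed was the same in all sites, so the 3 small genes differed from the larger ones only towards the 5′ end of the site. Counted from 1 at the 5′ end of the site, and written as the base of the perfect miR156a-5p complement followed by the base of the transcript, SPL3 had the substitutions G1U and C6U. The change C6U leaves a G:U pair. SPL4 had G1C and A7U, SPL5 had G1C, U2C and A7U, and the larger relatives had A7U alone. Against miR156a-5p, SPL5 was the least complementary of the 11 targeted SPL genes, with 3 mismatches. SPL3 and SPL4 had 2 and each larger relative had 1. Mismatches to the other miR156 and miR157 sequences, miR157a-5p among them, were not counted, and the order of the genes may differ there. Among 27444 genes with annotated messenger RNAs, 13 (0.0474%) held a match with at most 3 mismatches, 11 of them SPL genes. The 6 SPL genes outside the miR156 group had 6 to 8 mismatches at their best position.

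The site lay in the 3′ untranslated region in SPL3, SPL4 and SPL5 and inside the coding sequence in all 8 larger relatives. In SPL3 (plus strand of chromosome 2, gene from 14305001 to 14306072) the site at chr2:14305878-14305897 began 49 bases after the stop codon. In SPL4 (plus strand of chromosome 1, gene from 19806263 to 19807705) it lay at chr1:19807090-19807109, 9 bases after the stop codon. In SPL5 (minus strand of chromosome 3, gene from 5140365 to 5142323) it lay at chr3:5140598-5140617, 6 bases after the stop codon. The proteins encoded by the longest coding sequences have 131, 174 and 181 amino acids, in the order SPL3, SPL4 and SPL5, against 359 for SPL13A and 354 for SPL15.

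SPL4 differed from SPL3 and SPL5, which have 1 annotated messenger RNA each. Of its 3 annotated messenger RNAs, 1 holds the miR156 site and 2 splice it out, through introns of 255 and 319 bases that start at 19807088 and 19807024 and both end at 19807342. A table with 1 value per gene cannot tell these forms apart, so the SPL4 level below does not separate transcripts with and without the site. An annotated microRNA gene, MIR156i, lies on the opposite strand within SPL4, and the span of its mature product is the same 20 bases as the SPL4 site.

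**Figure D1:**
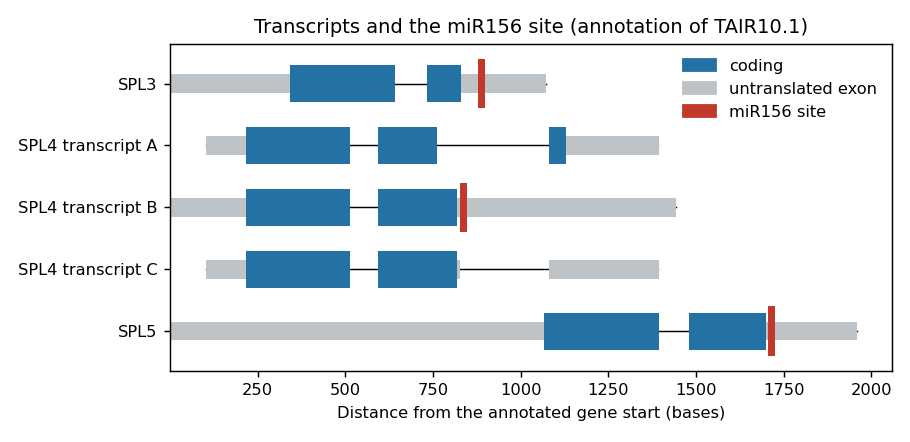
Annotated transcripts of SPL3, SPL4 and SPL5, drawn from the annotated gene start on the left, with distance in bases on the x axis. Coding parts are tall blue blocks, untranslated exons low grey blocks, introns lines, and the 20-base miR156 site a red bar, which is absent from SPL4 transcripts A and C.

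All 3 genes had higher levels in the ago1-36 library, in the order SPL3, SPL4, SPL5. Levels are the authors' RPKM, which scales reads to gene length in kilobases and to 1000000 reads of the library, and a fold is the plain ratio of the RPKM of ago1-36 to that of the wild-type. In wild-type seedlings SPL3 stood at 12.7 RPKM (171 reads, exact Poisson 95% interval 146 to 199), and in ago1-36 seedlings it stood at 487 RPKM (6502 reads, interval 6345 to 6662). It was 38.2-fold higher, with a 95% Clopper-Pearson interval of 32.9 to 44.8 on the reads. Intervals cover counting error only, because 1 library per genotype gives no spread between libraries. They treat each read as a separate molecule. Amplified reads that carry no molecular identifier cannot be taken as such, so the intervals may be too narrow.

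SPL4 stood at 7.51 RPKM in wild-type seedlings (110 reads, interval 90.4 to 133) and at 78.6 RPKM in ago1-36 seedlings (1143 reads, interval 1078 to 1211). It was 10.5-fold higher, with an interval of 8.59 to 12.8. SPL5 stood at 4.81 RPKM in wild-type seedlings (59 reads, interval 44.9 to 76.1) and at 21.4 RPKM in ago1-36 seedlings (261 reads, interval 230 to 295). It was 4.45-fold higher, with an interval of 3.34 to 6.01. The fold intervals of the 3 genes did not overlap each other.

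The order of the levels was the same in both libraries but the distances between the genes were not. SPL3 stood 1.70 times above SPL4 and 2.65 times above SPL5 in the wild-type library, and 6.20 and 22.8 times above them in the ago1-36 library. SPL4 stood 1.56 times above SPL5 in the wild-type library (95% Clopper-Pearson interval of the ratio 1.13 to 2.18) and 3.67 times above it in the ago1-36 library (interval 3.21 to 4.22). The interval of the wild-type ratio of SPL3 to SPL4, 1.33 to 2.18, also lay above 1, so both steps of the order were larger than counting error in each library.

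**Figure D2:**
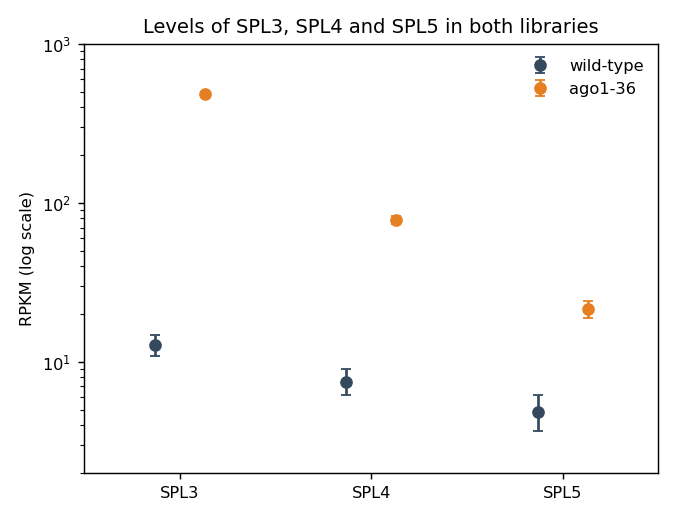
RPKM of SPL3, SPL4 and SPL5 on a log axis, with 1 point for the wild-type library and 1 for the ago1-36 library, and bars for the exact Poisson 95% interval of the reads (counting error only). The ago1-36 points lie at 487, 78.6 and 21.4 RPKM and the wild-type points at 12.7, 7.51 and 4.81 RPKM.

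For the comparison with the listed genes, genes with at least 1 RPKM in at least 1 library were kept. A log2 ratio of ago1-36 over wild-type was taken after adding 1 RPKM to both values, which understates the difference of low genes. On this scale SPL3 had a log2 ratio of 5.15, SPL4 of 3.22 and SPL5 of 1.95, while the median over the 11373 kept genes was -0.04. All 3 were at least 2-fold higher, as were 19.6% of the kept genes. SPL3 was also past 16-fold, as were 0.633% of the kept genes, and SPL4 past 4-fold, as were 6.14%. The deposited table held few genes just above 0. From 0 to 0.25 there were 216 kept genes, against 1514 from -0.25 to 0 and 1418 from 0.5 to 0.75. Why these genes are scarce was not tested. All shares of kept genes given here therefore describe the listed genes and not all annotated genes. Only 13 kept genes had a higher log2 ratio than SPL3, against 176 for SPL4 and 740 for SPL5. The 13 include AT2G33815, which overlaps SPL3 on the opposite strand and had nearly the same number of reads.

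By level, SPL3 stood above 51.4% of the kept genes in the wild-type library, close to the middle, and above 98.7% of them in the ago1-36 library. SPL4 stood above 37.1% and 87.5%, and SPL5 above 27.0% and 61.0%. The authors' deposited table gives log2 fold changes of 5.06, 3.19 and 1.95 and GFOLD scores of 4.81, 2.87 and 1.49, in the order SPL3, SPL4, SPL5. GFOLD is known as a log2 measure of change that shrinks towards 0 where reads are few.

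**Figure D3:**
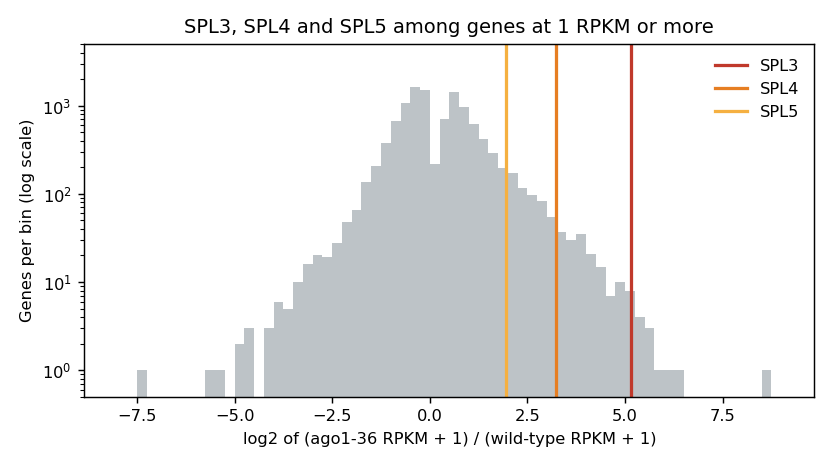
Number of kept genes, on a log axis, in bins of the log2 ratio of ago1-36 over wild-type with 1 RPKM added. The lines for SPL5, SPL4 and SPL3 at 1.95, 3.22 and 5.15 lie in the right flank, and the dip near 0 belongs to the deposited table, in which genes with slightly higher values in ago1-36 are scarce.

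Several features of the loci bear on what the reads can be credited to. SPL3 is overlapped almost end to end by AT2G33815, annotated as a natural antisense long non-coding RNA on the opposite strand (chromosome 2, 14305008 to 14306053). The values of AT2G33815 were 13.1 RPKM for wild-type and 502 RPKM for ago1-36, and its recovered reads came to 99.4% and 99.8% of those of SPL3. The use of strand in counting is not given in the sources used here, so sense and antisense reads of this locus cannot be told apart and the SPL3 value is uncertain to that extent. SPL5 lies within the annotated span of AT3G15260, on the opposite strand, which was not analysed here. The listed genes next to SPL4 did not share its difference, with DRP5A, a dynamin-related protein, at 1.96 and 1.28 RPKM and AT1G53163 at 2.43 and 0.789 RPKM in the wild-type and ago1-36 libraries.

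The 3 genes share coding sequence with each other, and how reads that match more than 1 gene were counted is not given in the sources used here. SPL4 and SPL5 were 74.5% identical over 554 aligned coding bases, SPL3 and SPL4 74.9% over 227, and SPL3 and SPL5 83.2% over 107. The longest run shared without a mismatch was 30 bases between SPL4 and SPL5, 20 between SPL3 and SPL5 and 17 between SPL3 and SPL4. The gene length implied by the deposited RPKM was about 981 bases for SPL3, the same as its 981 annotated exon bases. For SPL4 and SPL5 it was about 1071 and 897 bases, against 1365 and 1872 exon bases in TAIR10.1, so the authors' gene models for these 2 genes differed from the ones drawn here.

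Set against the rest of the family, SPL3 had the highest ratio of all 17 SPL genes, and its fold interval lay above those of the other 16. SPL4 ranked number 4, behind SPL13B (3.32 and 50.2 RPKM) and SPL13A (2.91 and 42.3 RPKM), near-identical copies that can share reads. The fold interval of SPL4 overlapped those of SPL13A, SPL13B, SPL9 and SPL15. SPL5 ranked number 7, and its interval overlapped those of SPL2, SPL8, SPL9, SPL10 and SPL15. Within the 3, SPL5, with the most mismatches to miR156a-5p, had the lowest fold. The larger relatives have 1 mismatch each. Of these, SPL2, SPL6, SPL10 and SPL11 had lower folds than SPL5, from 2.08 for SPL11 to 3.79 for SPL2. SPL9, SPL13A, SPL13B and SPL15 had higher folds than SPL5. A link between mismatches and fold was not tested.

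As a group the 3 small genes had a median log2 ratio of 3.22 and the 8 larger targeted relatives one of 1.98. On the scale with 1 RPKM added, 6 of these 8 passed the 2-fold mark upwards, against 19.6% of the kept genes. SPL6 and SPL11 did not. Their plain folds were 2.10 and 2.08, with intervals of 1.67 to 2.67 and 1.73 to 2.51 that reach below 2. The values of the 2 groups overlapped, since SPL5 at 1.95 lay below SPL13B, SPL13A, SPL9 and SPL15. The 6 SPL genes without the site, among them SPL7, the regulator of copper homeostasis, had a median of 0.77. Of these, only SPL14 (19.8 and 42.1 RPKM) passed that mark upwards and none passed it downwards, 1 of 6 and 0 of 6 against 19.6% and 8.38% of the kept genes. SPL7 had 11.1 and 8.72 RPKM and SPL12 17.1 and 15.2 RPKM, the only members of the family with a lower value in ago1-36.

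**Figure D4:**
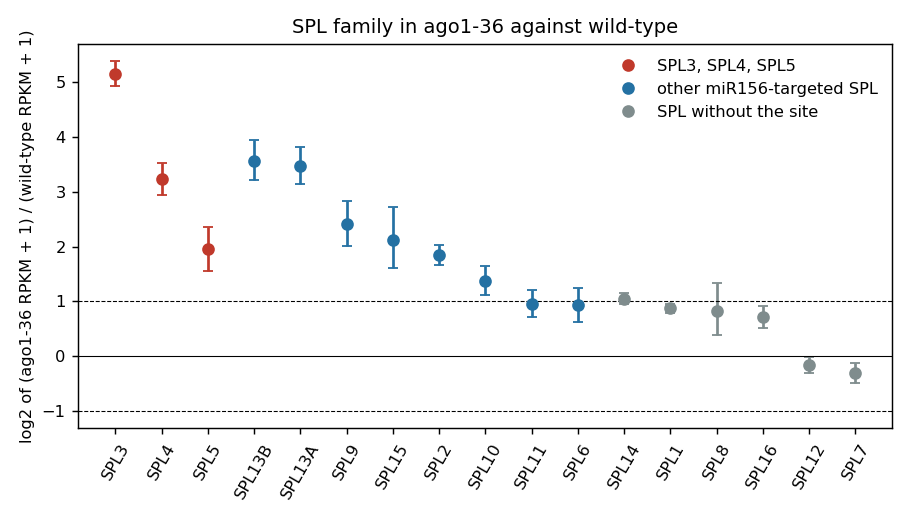
Log2 ratio of ago1-36 over wild-type, with 1 RPKM added, for the 17 SPL genes in 3 groups. Bars are 95% Clopper-Pearson intervals on the reads (counting error only), and dashed lines mark 2-fold differences. SPL3 at 5.15 lies above all others, and SPL5 at 1.95 lies among the larger targeted relatives.

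The make-up of the family's transcripts differed between the libraries. The RPKM of the 17 SPL genes summed to 152 in the wild-type library and 931 in the ago1-36 library. SPL3 made up 8.41% of this sum in the wild-type library, behind SPL1, SPL14 and SPL12, which have no miR156 site, and 52.4% in the ago1-36 library, where it ranked first. SPL4 ranked number 7 with a share of 4.95% in the wild-type library and number 2 with 8.44% in the ago1-36 library. SPL5 had a higher RPKM but a smaller share in ago1-36, 2.30% against 3.17%. Together the 3 small genes held 16.5% of the summed RPKM in the wild-type library and 63.1% in the ago1-36 library, while the 6 genes without the site held 58.8% and 15.3%. Overlapping and near-identical loci enter these sums with their values as deposited.

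**Figure D5:**
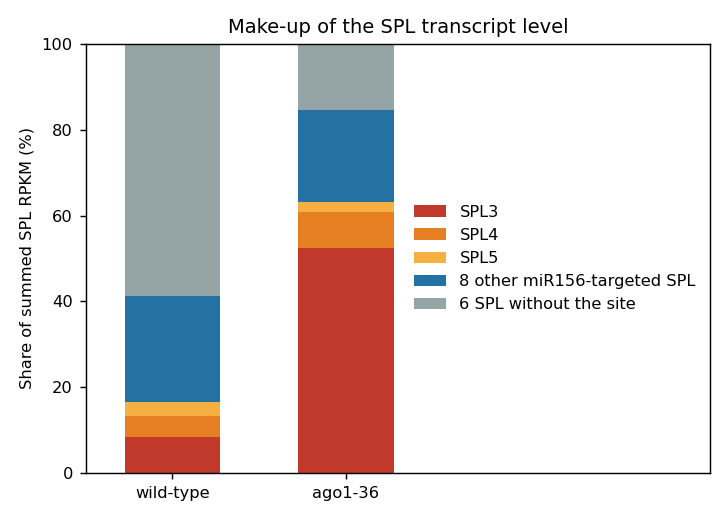
Share of the summed RPKM of all 17 SPL genes in each library, in percent, with SPL3, SPL4 and SPL5 shown singly and the other SPL genes in 2 groups. SPL3 takes 8.41% of the wild-type bar and 52.4% of the ago1-36 bar.

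Genes of the same pathway were read from lists of miR156 and miR172 genes, floral targets and partners. The 12 MIR156 and MIR157 precursor genes and the 5 MIR172 genes of the lists were not analysed here, so no level of miR156 or its precursors stands beside the SPL values. Of 5 flowering genes downstream of SPL proteins, 3 were listed and 2 were at least 2-fold higher with 1 RPKM added, against 19.6% of the kept genes. FUL, a MADS-box promoter of flowering that SPL3 binds, stood at 3.24 RPKM for wild-type and 21.1 RPKM for ago1-36, a 6.52-fold higher value (interval 4.83 to 8.97). AGL42, a MADS-box gene of the SOC1 group, had 3.15 and 23.7 RPKM and was 7.51-fold higher (interval 5.53 to 10.4). SOC1, an integrator of flowering signals, had 15.6 and 14.4 RPKM, and its interval of 0.780 to 1.10 includes 1. LFY and AP1 were not analysed here.

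Of 8 partners and other integrators of flowering only AGL24, a MADS-box promoter of flowering, was listed, at 37.4 RPKM for wild-type and 3.28 RPKM for ago1-36, an 11.4-fold lower value (interval 8.44 to 15.7). FD and FT, the proteins with which SPL3, SPL4 and SPL5 act, were not analysed here. Of the 6 AP2-like repressors of flowering targeted by miR172, a microRNA whose genes SPL9 activates, 4 were listed and 2 were at least 2-fold lower, against 8.38% of all kept genes, with a median log2 ratio of -1.05. They were TOE1 (61.9 and 33.0 RPKM), TOE2 (8.40 and 6.08 RPKM), SMZ (8.66 and 3.16 RPKM) and SNZ (11.1 and 0.414 RPKM). All 4 had lower values in ago1-36, while 5521 of the 11373 kept genes had higher values there. TRY, a repressor of trichomes downstream of SPL9, had 1.25 and 5.93 RPKM from 11 and 52 reads, while its partner TCL1 was not analysed here.

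AGO1 itself stood at 48.6 RPKM for wild-type and 5.59 RPKM for ago1-36, 8.70-fold lower (interval 7.66 to 9.89). The labels name the mutant but give no direction for the AGO1 transcript. Leaf and root markers were present in both libraries and lower in ago1-36. The 4 leaf mesophyll markers summed to 18459 and 8034 RPKM, with 2 of 4 at least 2-fold lower, and the 3 listed root epidermis markers of 4 summed to 28.1 and 3.97 RPKM, with 3 of 3 at least 2-fold lower, against 8.38% of the kept genes. Among the leaf markers, the Rubisco subunit gene RBCS1A stood at 3521 and 2414 RPKM, Rubisco activase RCA at 11211 and 3618 RPKM, and the light-harvesting genes CAB1 at 2839 and 1752 RPKM and LHCB1.2 at 888 and 251 RPKM. The root epidermis genes were PRP3 (16.9 and 1.94 RPKM), LRX1 (6.82 and 0.602 RPKM) and EXPA7 (4.39 and 1.42 RPKM). Of 7 floral organ genes 2 were listed, SEP4 at 6.86 and 3.32 RPKM and SEP3 at 0.508 and 0.0639 RPKM, from 8 and 1 reads, so the listed floral markers were not higher beside the higher SPL values. In whole seedlings, fewer cells of a type and less RNA per cell cannot be told apart, and the part of tissue composition in the SPL values was not tested.

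The genes whose pair of levels lay closest to a member, by distance in the plane of log2 RPKM plus 1 of the 2 libraries, were named for each member as a description over 2 libraries. For SPL3 they were its antisense partner AT2G33815, at a distance of 0.054, WRKY18, a defence transcription factor (12.5 and 320.4 RPKM), and CMPG1, a U-box ubiquitin ligase (16.9 and 334 RPKM). For SPL4 they were NUDT4, a nudix hydrolase (6.66 and 72.0 RPKM), TIFY10B, a jasmonate repressor also called JAZ2 (7.37 and 63.7 RPKM), and AT2G30020 (6.31 and 67.2 RPKM). For SPL5 they were AT5G46780 (4.94 and 22.2 RPKM), SAG101, a lipase-like regulator of senescence and defence (5.03 and 22.2 RPKM), and WRKY26 (4.98 and 22.6 RPKM). Apart from AT2G33815, the neighbours of SPL3 lay farther off, at 0.604 and 0.665, than any of those of SPL4 and SPL5, at 0.059 to 0.313.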

How the data were processed

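Per the labels' protocols, TRIzol-extracted total RNA of 1 wild-type and 1 ago1-36 sample was made into SMART libraries for RNA-seq. The submitters' processing notes name TopHat2 2.0.11 and the build TAIR10. How genes were counted (tool, gene models, strand, reads with several matches) is not given in the sources used here. The authors' deposited table gives an RPKM per gene and library, a log2 fold change between the genotypes and a GFOLD score, per the file headers. It has 11957 gene lines; without 291 repeats it holds 11666 genes, and 2 broken lines with no gene were ignored. SMART amplification can favour some transcript regions.

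Whole reads were recovered from the RPKM and log2 values, since the deposited log2 fold change equals log2 of the ratio of both read numbers, each plus 1, lowered by 0.1766. Of 2211 genes with 1 to 100 reads, 2210 came out whole within 0.1, and larger numbers are rounded estimates. Library totals are the most frequent value over annotated exon lengths. The log2 ratio used a pseudocount of 1 RPKM, a filter of 1 RPKM in at least 1 library and a 2-fold mark. The steps were tested on simulated data. Names, positions and sequences came from the RefSeq annotation of TAIR10.1, which 11556 of the genes matched, and the table carries no coordinates. Messenger RNAs were scanned without gaps for the 20-base complement of miR156a-5p, with up to 3 mismatches. Coding sequences were aligned with Biopython 1.88, and other steps used Python 3.11.15, numpy 2.4.6, pandas 2.3.3 and scipy 1.17.1.

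The members and lists were chosen with earlier results of these data known. Named were the 3 genes, AGO1, all SPL genes, listed members of lists with 6 or fewer of them, genes that overlap or flank a member, and the 3 nearest genes of each. Alternatives were pseudocounts of 0.1 and 0.5 RPKM, no filter, a filter of 5 RPKM, 2 rescalings, the authors' log2 fold change and GFOLD score, and the listed genes that share no bases with each other.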

Additional observations from a re-analysis of the deposited data

How the results depend on the processing

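SPL3, SPL4 and SPL5 were higher in ago1-36 under every alternative that gave a value, and each remained past 2-fold. Their log2 ratios left the counting interval under the GFOLD score of the authors' deposited table alone, at 4.81, 2.87 and 1.49. The median of the SPL genes without the site was 0.39 by that score, against 0.77. That score is made conservative for low counts by construction. By the same score 1391 kept genes were at least 2-fold higher, against 2228. By the log2 values that the authors' deposited table gives, 1791 genes were at least 2-fold lower, against 953, and the median of the miR172 list was -1.36. The floral organ list held 1 kept gene, SEP4, which stood at -1.22 on that scale. That scale shifts the median of all kept genes by -0.19, and higher genes made up 55.7% of its 2-fold differences, against 70.0%, or 61.9% by the GFOLD score. SPL3 has no value without overlapping genes, because it overlaps AT2G33815. No paired analysis was possible because each genotype had 1 library. Depth limits SPL5 most, with 59 wild-type reads.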

Other observations

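Outside the SPL family, 2 genes held a match to the miR156a-5p complement with 3 mismatches and none held a closer one. In AT3G28690 the match lay in the 5′ untranslated region and all 3 mismatches left G:U pairs, and the gene stood at 7.08 RPKM for wild-type and 9.84 RPKM for ago1-36, a log2 ratio of 0.42 with 1 RPKM added. In AT3G47170 the match lay in the coding sequence, and the gene was not analysed here.

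The overlap of a microRNA gene with a target site was seen for a second SPL gene. The span annotated for the mature product of MIR156j, at chr2:17589066-17589085 on the minus strand, is the same 20 bases as the site of SPL9 on the plus strand, as the span of MIR156i is the site of SPL4. SPL9 was 6.98-fold higher in the ago1-36 library (2.53 and 17.7 RPKM, 95% counting interval 5.21 to 9.53). Neither microRNA gene was analysed here.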
